A study of Mus musculus with 5 samples.

Results

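Zinc finger protein genes were followed here as 1 family in pancreatic beta cells. They were chosen by name and level: a gene had to be called Zfp with exactly 3 digits, to have been tested by the authors, and to have a mean of at least 1 FPKM over the GFP and p16 groups. FPKM is a transcript level scaled by transcript length and by the number of fragments sequenced. The rule kept 216 genes of the 23951 listed and of the 13264 tested. The level limit used the values of the same 2 groups that are compared below, so all of those values are a description of the members and none is a test.

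Beta cells came from Ins-rtTA/tet-GFP/tet-p16ink4a mice (p16 group, 3 samples) and from control Ins-rtTA/tet-GFP mice (GFP group, 2 samples). Every animal carried the insulin-promoter transactivator and the GFP transgene and received tetracycline for 10 days, so the p16INK4a transgene is what the groups do not share. Islets were dissociated, GFP-positive cells were sorted, and total RNA was sequenced. The design text speaks of 3 and 2 mice, the same as the numbers of samples. It gives no age or sex. The transgene is switched on through the insulin promoter, so the p16 group is a model of forced p16INK4a in insulin-expressing cells.

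A zinc finger of the C2H2 kind is a short fold in which a pair of cysteines and a pair of histidines hold a zinc ion, and arrays of such fingers read DNA sequence. Many of these proteins also carry a KRAB box, which recruits the corepressor Trim28 and through it the methyltransferase Setdb1 and heterochromatin proteins. KRAB zinc finger genes lie in tandem clusters and are best known for silencing retroelements and for guarding imprinted genes. Others carry a SCAN box, through which the proteins pair, or have neither box and act as activators, repressors or RNA-binding proteins. p16INK4a inhibits the cyclin D kinases, which keeps RB bound to E2F factors and holds E2F target genes down.

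Sequences upstream of the transcription start are shown for 3 members, the 2 that the authors called changed (Zfp217 and Zfp319) and the one with the lowest ratio of p16 over GFP (Zfp367). They are the 250 bases before the start in RefSeq, on the GRCm38.p6 build, written 5′ to 3′ along the strand of the gene. All 3 genes lie on the minus strand. Capitals mark E2F letters, meaning any of TTTCCCGC, TTTCGCGC, TTTGCCGC or TTTGGCGC on either strand. Zfp217 has 2 listed starts, and both are shown because they differ so much in base composition.
Zfp217, start listed first, chr2:170142676-170142925: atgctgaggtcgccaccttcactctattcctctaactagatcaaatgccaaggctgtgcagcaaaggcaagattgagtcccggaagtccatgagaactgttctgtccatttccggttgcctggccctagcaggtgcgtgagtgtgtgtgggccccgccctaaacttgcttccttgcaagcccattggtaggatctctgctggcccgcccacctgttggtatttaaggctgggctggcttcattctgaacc
Zfp217, start listed second, chr2:170131221-170131470: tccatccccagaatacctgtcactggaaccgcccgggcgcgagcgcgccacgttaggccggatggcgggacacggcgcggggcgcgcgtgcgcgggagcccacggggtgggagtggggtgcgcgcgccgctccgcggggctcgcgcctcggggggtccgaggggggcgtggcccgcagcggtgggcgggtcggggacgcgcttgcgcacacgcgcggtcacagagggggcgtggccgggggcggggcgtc
Zfp319, chr8:95331812-95332061: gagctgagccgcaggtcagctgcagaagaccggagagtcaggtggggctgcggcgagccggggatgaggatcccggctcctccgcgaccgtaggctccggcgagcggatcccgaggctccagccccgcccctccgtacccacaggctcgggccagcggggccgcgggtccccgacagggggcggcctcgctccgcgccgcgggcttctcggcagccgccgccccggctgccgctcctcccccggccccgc
Zfp367, start listed first, chr13:64153200-64153449: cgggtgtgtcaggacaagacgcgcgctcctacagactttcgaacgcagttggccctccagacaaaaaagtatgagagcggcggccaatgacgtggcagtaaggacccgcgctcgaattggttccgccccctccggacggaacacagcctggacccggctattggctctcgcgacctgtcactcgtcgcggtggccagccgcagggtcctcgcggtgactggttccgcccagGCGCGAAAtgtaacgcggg
The first Zfp217 stretch was 54.4% G or C with 6 CpG dinucleotides, and the second was 80% with 43. The Zfp319 stretch was 78.4% G or C with 33 CpG dinucleotides. Neither gene held the E2F letters there. The Zfp367 stretch was 64.0% G or C and held GCGCGAAA, which is TTTCGCGC on the other strand, beginning 19 bases before the start. Its other listed start also had such letters, GCGCCAAA, beginning 90 bases before it. A match is only a run of letters and not a shown binding site.

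The table holds 284 genes with a 3-digit Zfp name. The authors tested 252 of them and left 32 untested, of which 3 are listed at 0 in both groups. Of the tested genes 36 lay below the limit, and none of these was called changed, while 6 had an unadjusted p below 0.05. Over all tested genes of any name and level, 5.42% were called and 17.2% had such a p. Just inside the limit were Zfp783 (whose locus overlaps Zfp956) with 0.798 FPKM in GFP and 1.22 FPKM in p16, Zfp382 with 1.18 and 0.847 FPKM, and Zfp202 with 0.974 and 1.09 FPKM. Just outside it were Zfp808 with 1.25 and 0.740 FPKM, Zfp712 with 1.11 and 0.877 FPKM, and Zfp647 with 0.603 and 1.22 FPKM.

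The table gives 1 FPKM value per group, so neither depth nor the spread between samples is known. Calls of change are those of the authors' deposited table, at a q below 0.05. Of the 10 beta-cell markers, Ins1, Ins2 and Iapp carried no estimate because of too many fragments, and the other 7 lay between 67.6 and 3012 FPKM in GFP and between 119.6 and 2327 FPKM in p16. Their summed FPKM was 4742 in GFP and 3605 in p16, and Slc2a2 alone of them was called, lower. G6pc2 made up most of the sum, and Pdx1, Mafa and Nkx6-1 had the higher value in p16. Markers of other cells moved as well: the summed FPKM of 4 delta and PP cell markers was 1816 in GFP and 3897 in p16, that of 6 alpha cell markers 2159 and 2781, and that of 4 duct markers 153.0 and 503.9. Cldn4 made up most of the duct sum, at 143.3 FPKM in GFP and 486.5 FPKM in p16. The authors' deposited table called 3 of the 4 delta and PP markers, 1 of the 6 alpha markers and 3 of the 4 duct markers higher. It called 1 duct marker, Krt19, lower. It also called Cd68 of the leukocyte markers and 2 of the stellate and fibroblast markers higher. The 5 acinar markers summed to 13 and 13.8 FPKM with Prss1 at 0 in both groups, the 3 endothelial markers to 0.317 and 0.292, the 4 leukocyte markers found to 0.385 and 2.3 with Emr1 at 0 in p16, and the 5 stellate and fibroblast markers to 0.436 and 4.71. Their part in the zinc finger values was not tested. In such bulk samples, fewer cells of a type and less RNA per cell cannot be told apart. Cdkn2a, which encodes p16INK4a, stood at 0.657 FPKM in GFP and 34.6 FPKM in p16.

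Most zinc finger genes were expressed at low levels, and few were called changed. The median member had a mean of 4.74 FPKM, against 11.7 FPKM for all tested genes of at least 1 FPKM. Members numbered 110 below 5 FPKM, 49 at 10 FPKM or more and 14 at 20 FPKM or more. Only Zfp217 and Zfp319 were called changed, both higher in p16, which is 0.926% of the members. The authors' deposited table called 5.42% of all tested genes (4.32% higher, 1.10% lower) and 5.19% of those of at least 1 FPKM (4.0% higher, 1.19% lower). None of the members was called lower by Cuffdiff in the authors' deposited table. At an unadjusted p below 0.05 there were 23 higher and 13 lower members, together 16.7%. The same share was 17.2% of all tested genes (10.2% higher, 7.01% lower) and 16.4% of those of at least 1 FPKM (9.15% higher, 7.27% lower). These shares are given as background only, since the choice of members used the same contrast. For 173 of the 216 the values lay within 1.5-fold of each other, with 31 beyond it on the higher side and 12 on the lower, where 11.6% of tested genes of at least 1 FPKM were over 1.5-fold higher and 8.59% over 1.5-fold lower.

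**Figure D1:**
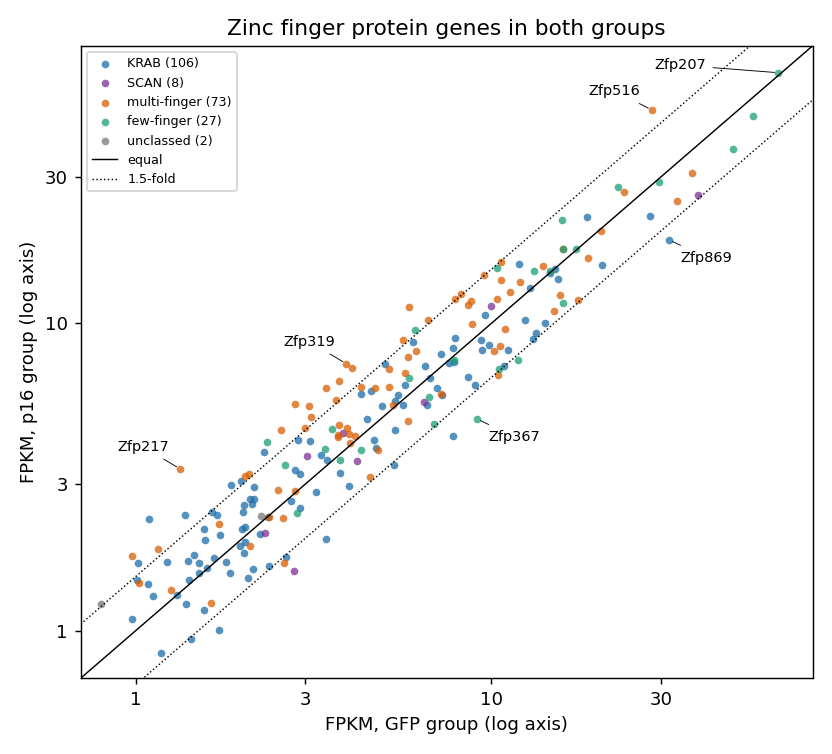
FPKM of the 216 members in the GFP group (horizontal, log axis) and the p16 group (vertical, log axis), 1 point per gene and coloured by domain class, with the line of equal values and dotted lines at 1.5-fold. Most points hug the diagonal, 31 lie above the upper dotted line and 12 below the lower one.

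Zfp217 encodes a multi-finger repressor whose human counterpart is amplified in breast cancer and works with CtBP and CoREST complexes. It stood at 1.33 FPKM in GFP and 3.36 FPKM in p16, and so rose 2.53-fold (q = 0.00245 in the authors' deposited table). This was the largest ratio of any member, at a low level. On the table's mm9 build its locus is chromosome 2, 169934143 to 169968175.

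Zfp319 stood at 3.90 FPKM in GFP and 7.40 FPKM in p16 and rose 1.90-fold, with q = 0.0422 in the authors' deposited table. The mm9 locus is chromosome 8, 97850036 to 97855850, and the protein has 12 fingers. At a q below 0.01 Zfp217 was still called and Zfp319 was not. With the trend of all tested genes with GC content and length removed, the log2 ratio of Zfp319 went from 0.92 to 0.42 and that of Zfp217 from 1.34 to 1.06.

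Zfp367 had the lowest ratio, at 9.13 FPKM in GFP and 4.88 FPKM in p16, and just missed the authors' limit (q = 0.0539 in the authors' deposited table). Its human counterpart is listed among genes expressed around the start of S phase. The mm9 locus is chromosome 13, 64234365 to 64254507. Zfp516, an activator of brown fat genes, missed by the same q on the other side, at 28.2 FPKM in GFP and 49.6 FPKM in p16. It was the fourth most abundant member by its mean over the groups, and its locus overlaps that of 4930592I03Rik, so reads there may be shared.

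A few more members approached the limit. Zfp869, a KRAB gene, stood at 31.6 FPKM in GFP and 18.7 FPKM in p16 (q = 0.0672 in the authors' deposited table). Zfp747, another KRAB gene, stood at 1.09 and 2.31 FPKM (q = 0.0796), the only member besides Zfp217 with more than 2-fold between the groups. Zfp184 stood at 7.79 and 4.31 FPKM (q = 0.0993). With a q below 0.1, the calls would be 4 higher and 3 lower. No share of all tested genes is given at that limit, so these counts have no background beside them.

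Among the other large differences, the higher values in p16 belonged to Zfp771 with 5.88 FPKM in GFP and 11.3 FPKM in p16, Zfp692 with 2.80 and 5.45 FPKM, Zfp579 with 3.43 and 6.18 FPKM and Zfp865 with 4.06 and 7.17 FPKM. The lower values in p16 belonged to Zfp654 with 11.9 FPKM in GFP and 7.58 FPKM in p16, Zfp773 with 3.43 and 1.99 FPKM, Zfp800 with 10.4 and 6.78 FPKM and Zfp174 with 2.79 and 1.57 FPKM. None of these 8 passed in the authors' deposited table. The log2 ratio of Zfp771 went from 0.95 to 0.33 with the GC and length trend removed.

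As a family the members leaned slightly to the p16 side, though not under every scaling. Their median log2 ratio of p16 over GFP was 0.10, against -0.02 for all tested genes and -0.04 for tested genes of at least 1 FPKM, but it was 0.00282 with quantile normalization, where that of all tested genes was -0.041. The p16 value was the higher one in 127 members and the lower one in 89. That is 58.8% higher, against 48.4% of all tested genes and 46.6% of those of at least 1 FPKM. With quantile normalization it was higher in 108 of 216. That normalization was of log2(FPKM + 1), and a pseudocount of 1 alone gave a median of 0.073. With the GC and length trend removed the median was 0.091 (all tested genes -0.12), with 128 members higher. When ratios were centred it was 0.117, with 132 higher. The middle of the ratios was spread about as widely as in other genes, with quartiles of -0.21 and 0.40 on the log2 scale against -0.32 and 0.27 for tested genes of at least 1 FPKM. A smaller share of members lay beyond 2-fold: 0% had a log2 ratio at or below -1, against 1.64% of tested genes of at least 1 FPKM. At or below 1 lay 99.1% of members, against 95.4% of those genes. Member ratios ran from -0.90 for Zfp367 to 1.34 for Zfp217. Those of tested genes of at least 1 FPKM ran from -4.72 to 9.75, but a range also widens with the number of genes. Ratios over 1.5-fold were found on the higher side in 31 members and on the lower side in 12, where the shares were 14.6% and 9.65% of all tested genes and 11.6% and 8.59% of those of at least 1 FPKM.

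**Figure D2:**
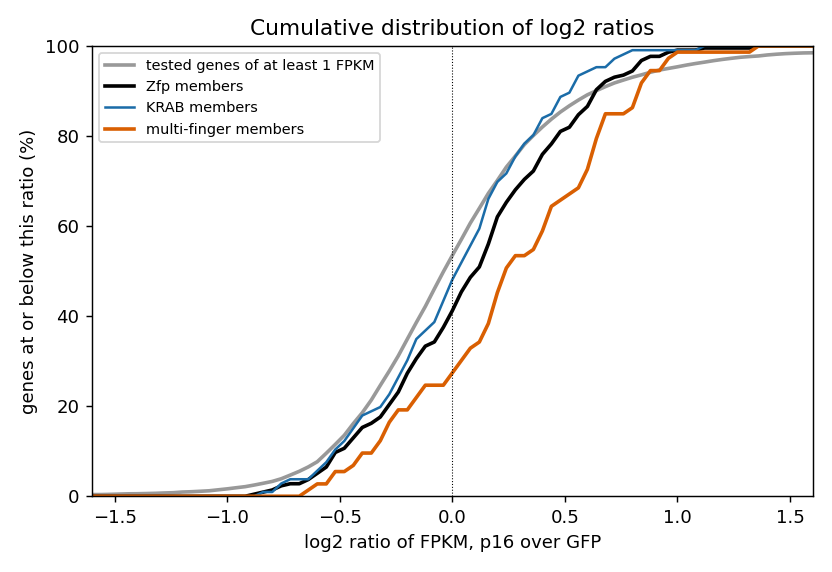
Percentage of genes (vertical) with a log2 ratio of p16 over GFP at or below the value on the horizontal axis, for tested genes of at least 1 FPKM (grey), the 216 members (black), the KRAB members (blue) and the multi-finger members (orange). Beyond log2 ratios of -1 and 1 the black curve has shorter tails than the grey one. Around the middle the orange curve lies to the right of the others. The medians are 0.10, -0.04, 0.02 and 0.23 for black, grey, blue and orange. The black and blue medians became 0.00282 and -0.069 with quantile normalization.

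The most abundant members are mostly not classical KRAB repressors. Zfp207, which encodes a protein of spindle and kinetochore assembly, led with 64.0 FPKM in GFP and 65.5 FPKM in p16. Zfp330, a nucleolar protein gene, followed with 54.5 and 47.4 FPKM, and Zfp706, which encodes a small zinc finger protein, with 47.9 and 37.1 FPKM. Zfp664 stood at 36.7 and 30.8 FPKM. Zfp191, a SCAN gene now named Zfp24 and needed for myelination, stood at 38.2 and 26.1 FPKM. Together with Zfp516 these were the 6 highest by mean, and in 4 of the 6 the p16 value was lower, though for Zfp330 the sign turned with the trend of GC content removed. Members of 20 FPKM or more had a median log2 ratio of -0.12, near the -0.10 of all tested genes of that level. Between 2 and 5 FPKM it was 0.18 against 0.03, the widest gap of the levels. It was 0.08 against 0.06 at 1 to 2 FPKM, 0.06 against -0.01 at 5 to 10 FPKM and 0.13 against -0.01 at 10 to 20 FPKM.

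Domain classes were read from translated GENCODE proteins, which the choice of members had not used. A KRAB box was found in 106 of the 214 members with a translated protein, a SCAN box without KRAB in 8, at least 3 fingers with neither box in 73, and fewer than 3 fingers in 27. For the other 2, Zfp783 and Zfp939, no complete translated protein was obtained from GENCODE. The number of fingers ran from 0 to 33, with medians of 11 in the KRAB class and 9 in the multi-finger class.

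Genes of the KRAB class were low and balanced. Their median FPKM was 3.0 in GFP and 3.25 in p16, with 55 higher and 51 lower in p16. None was called in the authors' deposited table, where the share over tested genes of at least 1 FPKM was 5.19%. At an unadjusted p below 0.05 there were 4 higher and 6 lower, beside 9.15% and 7.27% of those genes. The class median log2 ratio was 0.02, which turned to -0.069 with quantile normalization, with 43 higher and 62 lower. It was 0.19 once the trend of all tested genes with GC content and length was removed, with 71 higher and 35 lower. That removal itself set the median of all tested genes at -0.12.

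Several KRAB genes of known function were measured, and none of those named next was called. Zfp809, which targets the silencing of retroviral DNA, stood at 10.8 FPKM in GFP and 7.24 FPKM in p16. Zfp568, a repressor of a placental Igf2 transcript, stood at 13.4 and 9.31 FPKM. Zfp445, which maintains imprints, stood at 12 and 15.6 FPKM. Zfp932, another KRAB gene, was level at 15.1 and 15 FPKM. Their q-values in the authors' deposited table lay between 0.300 and 0.999.

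Multi-finger genes without a KRAB or SCAN box held both calls, or 2.74% of the class, beside 5.19% of tested genes of at least 1 FPKM. Multi-finger members had the higher value in p16 in 53 of 73. Their median log2 ratio was 0.23. At an unadjusted p below 0.05 there were 17 higher and 2 lower, beside 9.15% and 7.27% of tested genes of at least 1 FPKM. The median was 0.15 with quantile normalization, and 0.056 once the trend with GC content and length was removed, with 42 higher and 31 lower. The class median FPKM was 5.14 in GFP and 6.22 in p16.

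Several multi-finger members are chromatin or promoter regulators, and none of the following passed in the authors' deposited table. Zfp592 and Zfp687, which sit in a complex with the reader protein Zmynd8, stood at 5.63 FPKM in GFP and 8.84 FPKM in p16 and at 9.55 and 14.4 FPKM. The Zfp687 locus overlaps Pi4kb and Mir7013. Zfp335, part of a histone methyltransferase complex, stood at 8.23 and 12.4 FPKM. These 3 had the higher value in p16, but with the GC and length trend removed the log2 ratio went from 0.65 to 0.31 for Zfp592, from 0.59 to 0.17 for Zfp687 and from 0.60 to 0.046 for Zfp335.

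Partners of the H3K9 methyltransferases G9a and GLP went apart, with Zfp644 at 8.75 FPKM in GFP and 11.8 FPKM in p16 and Zfp462 at 1.63 and 1.23 FPKM. Zfp148, which binds GC-rich promoters, stood at 15 and 11 FPKM, and Zfp281, a pluripotency regulator, at 4.31 and 6.22 FPKM. Zfp277, which works with Polycomb proteins in the repression of the Ink4a/Arf locus, stood at 15.6 and 12.4 FPKM (q = 0.601 in the authors' deposited table). Zfp260, a cardiac transcription factor gene, stood at 17.5 and 11.9 FPKM.

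Other multi-finger members were not called either. Zfp384 stood at 12 FPKM in GFP and 13.7 FPKM in p16, Zfp652, a partner of the ETO corepressors, at 10.7 and 13.9 FPKM, and Zfp467, which acts in the choice between fat and bone cells, at 3.94 and 4.57 FPKM. Zfp236, described as a glucose-regulated gene in kidney cells, was level at 4.0 and 4.08 FPKM. Zfp346, a binder of double-stranded RNA, stood at 11.0 and 9.57 FPKM.

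Genes with fewer than 3 fingers were the most abundant class, with a median FPKM of 10.4 in GFP and 7.61 in p16, and went both ways, with 14 higher and 13 lower (13 and 14 with quantile normalization, 10 and 17 with the GC trend removed). The finger pattern needed 2 residues between the cysteines, and 7 of the 27 have 3 or more fingers when 2 to 4 are allowed. Among these are Zfp143, an activator of small nuclear RNA and many other promoters, at 3.57 FPKM in GFP and 4.52 FPKM in p16, and Zfp410, an activator of Chd4, level at 14.7 and 14.8 FPKM. Zfp703, a corepressor of the NET family, stood at 2.34 and 4.11 FPKM (q = 0.177 in the authors' deposited table).

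Members tied to RNA and ribosomes had mixed values and no call. Zfp622, a maturation factor of the large ribosomal subunit with 3 fingers, stood at 33.3 FPKM in GFP and 25 FPKM in p16. Zfp598, the ligase that marks collided ribosomes, stood at 15.8 and 21.7 FPKM, and Zfp593, of large subunit assembly and with a locus that overlaps E130218I03Rik, at 3.74 and 3.61 FPKM. Zfp326, which links elongating polymerase to splicing, stood at 15.9 and 11.7 FPKM, Zfp830, a spliceosome-associated gene, at 6.89 and 4.70 FPKM, and Zfp318, which sets IgD splicing in B cells, at 2.85 and 2.42 FPKM. The RNA-binding protein gene Zfp106 was level at 29.6 and 29.0 FPKM.

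The SCAN class was small, with 3 of 8 higher and 5 lower and a median log2 ratio of -0.19. Zfp191 and Zfp174 were lowest in p16 relative to GFP, and Zfp213 was highest, at 3.03 FPKM in GFP and 3.71 FPKM in p16.

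**Figure D3:**
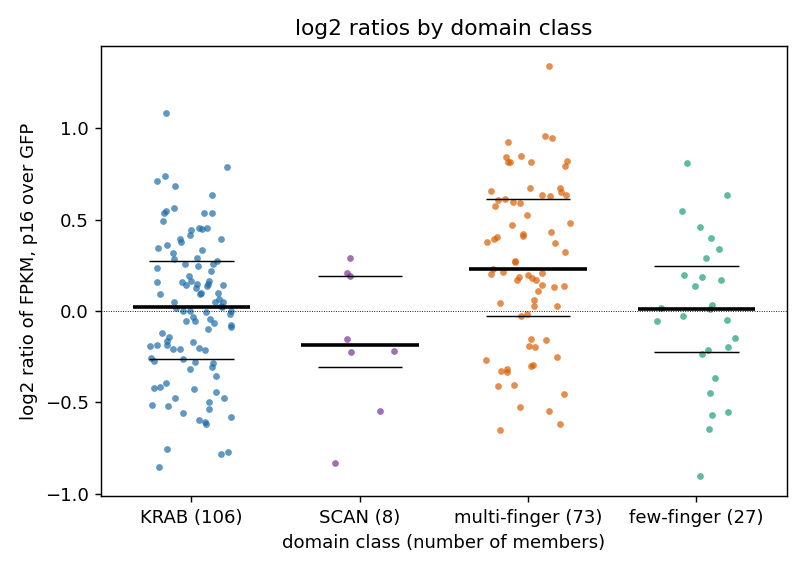
Log2 ratio of FPKM, p16 over GFP (vertical), of each member in the KRAB, SCAN, multi-finger and few-finger classes (horizontal), 1 point per gene, with thick lines at the medians and thin lines at the quartiles. The medians are 0.02, -0.19, 0.23 and 0.01 (with quantile normalization -0.069 for KRAB and -0.00598 for few-finger), and all classes overlap over most of their range.

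The ratios followed the base composition of the transcripts. Across the 216 members the Spearman correlation of GC content with the log2 ratio was 0.46, as it was across 13044 tested genes (0.46), all read from the same libraries. It was 0.18 over the 106 KRAB members and 0.63 over the 108 members of the other classes. KRAB members had a median GC content of 42.0% and multi-finger members 51.9%, against 49.7% for all tested genes, so class and GC content go together. The number of fingers was nearly unrelated to the ratio (rho 0.08, n = 214).

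Tested genes were parted into 5 bins of equal size by GC content, and members were read against the genes of their own bin. In the lowest bin, below 43.9%, all tested genes had a median log2 ratio of -0.32, the 70 KRAB members 0.02 and the 24 members of other classes -0.27. In this bin 37 of the 70 KRAB members had the higher value in p16, or 52.9%, against 22.0% of all tested genes. The bins were not matched for level. These KRAB members had a median mean of 3.06 FPKM, and all tested genes of the bin 10.3 FPKM. Tested genes of any GC content were higher in 54.6% at 1 to 2 FPKM and in 38.7% at 20 FPKM or more. In the second bin the KRAB median was -0.26 over 15 members against -0.19 for all tested genes. It was 0.34 over 10 members against -0.04 in the third bin, and 0.34 over 8 members against 0.11 in the fourth. In the highest bin, above 55.5%, 31 of 33 members had the higher value in p16, or 93.9%, against 79.5% of all tested genes. The member median there was 0.55 against 0.30 for all tested genes of the bin. Only 3 of the 33 were KRAB genes, with a median of 0.29. With the trend of all tested genes removed, the KRAB median of 0.19 lay above the multi-finger median of 0.056, the reverse of their order as measured.

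**Figure D4:**
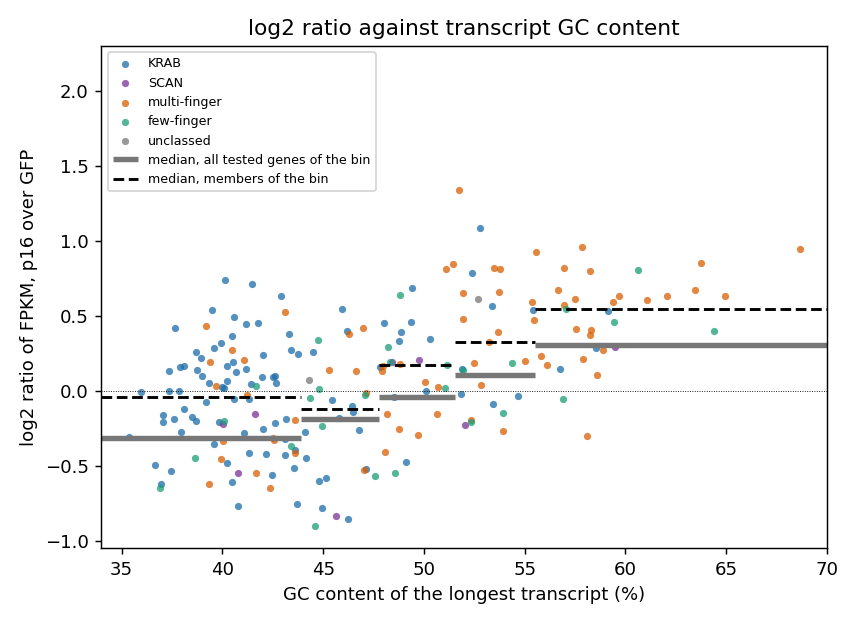
Log2 ratio of FPKM, p16 over GFP (vertical), against the GC content of the longest transcript (horizontal, %), 1 point per member and coloured by class, with the medians of all tested genes (grey) and of members (dashed) in 5 GC bins. The medians of all tested genes climb in every step, from -0.32 to 0.30, while those of members go from -0.04 to -0.12 and then up to 0.55.

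Many members lie next to each other: 108 of the 216 members had another member starting within 200000 bases, in 29 runs. Chromosome 7 held 55 members and chromosome 17 held 25. Of the 29 runs, 10 had every member higher in p16, 5 had every member lower and 14 held both. With quantile normalization these were 7 and 6 of one direction, and with the GC trend removed 8 and 5. Of the 17 runs of 3 or more members, 3 were higher throughout and 2 lower throughout as measured. The other runs of one direction were pairs. Genes of a run are often related copies whose reads the authors' counting could split, so single values there are uncertain.

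The largest run spans 9 KRAB members on chromosome 17, 21520712 to 22593656 in mm9, with a median log2 ratio of -0.17 and 3 higher and 6 lower, but 0.18 with 8 higher and 1 lower once the GC trend was removed. Values ran from Zfp946 with 5.32 FPKM in GFP and 3.47 FPKM in p16 to Zfp229 with 1.51 and 1.66 FPKM. Between them lay Zfp677, Zfp948, Zfp942, Zfp943, Zfp944, Zfp947 and Zfp758, the last at 7.25 and 5.87 FPKM.

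A run of 8 on chromosome 7, 30601091 to 30954746 in mm9, had the lowest median of the runs of 4 or more, -0.50 (-0.36 with the GC trend removed). In 6 of the 8 the p16 value was lower: Zfp420 stood at 2.62 FPKM in GFP and 1.66 FPKM in p16, Zfp383 at 2.64 and 1.74 FPKM, Zfp382 and Zfp568 as given above, Zfp260 at 17.5 and 11.9 FPKM and Zfp566 at 2.73 and 2.65 FPKM. Zfp790 went the other way with 4.31 and 5.89 FPKM, and so did Zfp146, the most abundant of the run, with 23.7 and 26.8 FPKM. The genes of this run differ in class, with 5 KRAB and 3 multi-finger members.

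An equally large run on the same chromosome, 134376957 to 134757947 in mm9, had all 8 members higher in p16 and a median log2 ratio of 0.72, and all 8 stayed higher with quantile normalization and with the GC trend removed, where the median was 0.32. It holds Zfp553, Zfp771, Zfp768, Zfp747, Zfp764, Zfp688, Zfp689 and Zfp629, of which 4 are KRAB genes, and its median GC content was 53.5%. Zfp764 stood at 1.37 FPKM in GFP and 2.38 FPKM in p16, Zfp553 at 3.74 and 6.49 FPKM, and Zfp768 at 3.65 and 5.64 FPKM. This run and those that follow were singled out after their values were seen.

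Another run of 6 multi-finger genes on chromosome 7, 4866819 to 5005325, was also higher in p16 throughout, with a median of 0.65 and a GC content of 61.2%, but in 5 of 6 with quantile normalization and in 4 of 6 with the GC trend removed. On chromosome 17, 32902442 to 33247649, 6 KRAB genes from Zfp871 to Zfp563 were all higher, with a median of 0.19 at a GC content of 40.2%. In that run 5 of 6 were higher with quantile normalization, and all 6 with the GC trend removed, where the median was 0.46. On chromosome 9, 20149580 to 20399637, the KRAB genes Zfp560, Zfp426, Zfp266 and Zfp846 were all lower, with a median of -0.45 at 41.2%, also with quantile normalization and with the GC trend removed. The last 2 runs share class and nearly the same base composition, and their ratios lay on opposite sides.

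**Figure D5:**
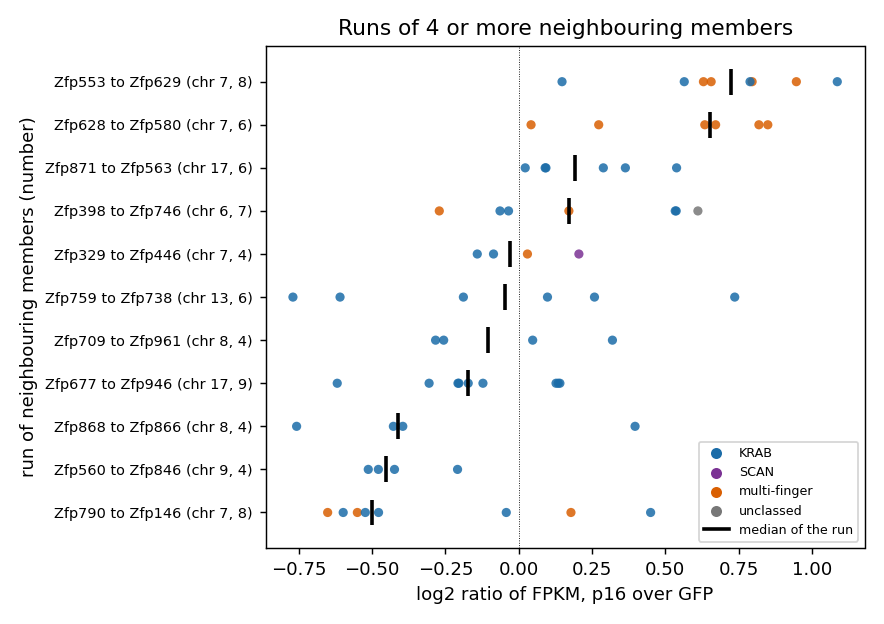
Log2 ratio of FPKM, p16 over GFP (horizontal), of the members of each run of 4 or more neighbours (vertical, named by the first and last gene with the chromosome and number of members), 1 point per gene coloured by class and a bar at the run's median. The medians run from -0.50 for Zfp790 to Zfp146 up to 0.72 for Zfp553 to Zfp629.

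The E2F letters searched for in the sequences above were looked up for all members. Of 181 members with a RefSeq window of 250 bases before to 50 after a start, 12 held them at a listed start, or 6.63%, against 2.61% of all 27025 genes with such windows. The 27025 genes were not limited by level, as the members were. Member windows were richer in G and C, with a median of 57.0% against 52.7%. They also held more CpG dinucleotides, with a median of 16 against 7, and each of the E2F letter runs contains a CpG. The 12 went both ways, with 8 higher and 4 lower in p16 and a median log2 ratio of 0.15. The lower ones were Zfp367, Zfp383, Zfp512 and Zfp444, and the highest ratio belonged to Zfp687. The search, the genes named here and Zfp213 above were chosen after values were seen. None of the 12 was called in the authors' deposited table, where 5.19% of tested genes of at least 1 FPKM were.

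The machinery that KRAB proteins recruit was measured in the same table, by a list of 32 genes of which 31 were tested. None was called in the authors' deposited table, where 5.42% of all tested genes were. At an unadjusted p below 0.05 there were none higher and 4 lower, beside 10.2% and 7.01% of all tested genes. Trim28, the KRAB corepressor, was level at 41.6 FPKM in GFP and 40.9 FPKM in p16, and its partner methyltransferase Setdb1 stood at 7.53 and 6.27 FPKM. The heterochromatin protein gene Cbx3 stood at 71.9 and 46.8 FPKM, Cbx5 at 16.8 and 11.5 FPKM, the deacetylase gene Hdac2 at 63.0 and 41.5 FPKM and the histone chaperone gene Rbbp4 at 51.8 and 35.2 FPKM. The p16 value was lower in 24 of the 31 and higher in 22.6%, beside 48.4% higher among all tested genes. The median log2 ratio of the list was -0.20, against -0.02 for all tested genes. Its median gene had a mean of 12.8 FPKM. Tested genes of 10 to 20 FPKM were higher in 48.9%, with a median log2 ratio of -0.01. Those of 20 FPKM or more were higher in 38.7%, with a median of -0.10. No value of this list is given here under another scaling or with the GC trend removed.

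Zinc finger genes of other names (Zbtb, Zkscan, Zscan, and Zfp with fewer digits or a letter) numbered 110 under the same limits, and 3 were called higher and 1 lower, or 3.64%, beside 5.19% of tested genes of at least 1 FPKM. Their median log2 ratio was 0.07 with 64 higher in p16, close to the 0.10 and 58.8% of the members. The calls were Zfp64 with 5.50 FPKM in GFP and 12.3 FPKM in p16, Zbtb34 with 0.737 and 1.65 FPKM, Zbtb7b with 13.5 and 24.6 FPKM, and Zfp36, a CCCH protein gene of mRNA decay, with 158.1 and 50.8 FPKM (q-values of 0.00899, 0.0284, 0.0492 and 0.00245 in the authors' deposited table).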

How the data were processed

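Per the submitters' processing notes, reads were handled with TopHat2, Cuffnorm and Cuffdiff on mm9; the sources used here do not give versions, annotation or use of strand. The authors deposited 1 FPKM value per group and gene, with a p-value and a q-value. Benjamini-Hochberg adjustment of the deposited p-values over tested genes returned their q-values within 5.23e-07. Calls are at a q below 0.05.

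Log2 ratios were computed from the FPKM values with no pseudocount. Medians of all tested genes are over the 13174 with a value above 0 in both groups. Group values allow no fit per sample, so p-values are those of Cuffdiff. The design text counts as many mice as samples, but no label ties a sample to a mouse. Deposited starts were raised by 1.

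The members and lists were chosen with earlier results of these data known. Named genes were all called members, the 8 largest rises and falls in log2(FPKM + 1), the 6 most abundant, 3 on each side of the level limit, chosen genes of known role, and the 2 largest runs; a tie for the second was settled by order.

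GC content and proteins came from GENCODE M21, used for sequence only because its build is not mm9. All 216 members matched by name or synonym and 214 could be translated; the plan named RefSeq proteins, which were not used. Fingers were C-x2-C-x12-H-x3 to 5-H. A KRAB box was allowed 7 mismatches at 19 positions (no member had 8 or 9) and a SCAN box 5 at 18. The GC and length trend was a spline fit with 4 degrees of freedom each over tested genes, checked on simulated data. Python 3.11.15, numpy 2.4.6, pandas 2.3.3, scipy 1.17.1, patsy 1.0.2 and matplotlib 3.10.9 were used.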

Additional observations from a re-analysis of the deposited data

How the results depend on the processing

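The calls rest on few genes near the limit. Members called higher numbered 2, against 1 at a minimum of 5 FPKM, 1 at a q below 0.01, 4 at a q below 0.1 and 1 with p adjusted again over genes of at least 5 FPKM. Members called lower numbered 0, against 3 at a q below 0.1. There was 1 when names with 1 to 3 digits and an optional letter were taken. No share of all tested genes is given for these other limits. With quantile normalization of log2(FPKM + 1) the median log2 ratio of members was 0.00282 (all tested genes -0.041), the KRAB median -0.069 and the members higher in p16 numbered 108. With the GC and length trend removed, which took up 13.8% of the variance of the log2 ratios, the KRAB median was 0.19 and the multi-finger median 0.056, so the order of the 2 classes turned. Of 71 named members, 14 changed sign under that removal, 6 under quantile normalization and 1 when ratios were centred; Zfp217 and Zfp319 did not. Pseudocounts of 0.1 and 1 changed no sign. Leaving out the 14 members with an overlapping locus, and the wider finger pattern, were added after seeing the data; the median without those 14 was 0.06. Leaving out single samples was not run, and depth is unknown. No paired analysis was possible because the table gives 1 value per group.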
